A study of Arabidopsis thaliana with 29 samples.

Results

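The aquaporin family of Arabidopsis thaliana was described across leaf RNA of plants sprayed with abscisic acid (ABA) or with either of 2 synthetic ABA mimics. The family was taken as 35 genes by locus identifier, 5 PIP1, 8 PIP2, 10 TIP, 9 NIP and 3 SIP genes, out of 33559 genes in the expression table. A member entered the tests if it reached 1 FPKM (fragments per kilobase of transcript, scaled to the mapped fragments of the library) in at least 2 libraries. This held for 23 of the 35, among 18521 genes tested in all. The 12 others are named with their highest values below. Genes are called by symbols from the expression table, with the systematic name beside the symbol at its first use for the members with most results.

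RNA-seq was made from leaves of 3-week-old Col-0 wild-type plants, 6, 24 or 72 h after a spray with AMF1β, AMF4 or ABA at 10 μM, or with DMSO, the solvent, alone. At 6 h there were 3 libraries each of ABA, AMF1β, AMF4 and DMSO. At 24 h there were 3 of ABA, 3 of AMF1β, 2 of AMF4 and 3 of DMSO, and at 72 h there were 1 of ABA, 2 of AMF1β, 2 of AMF4 and 1 of DMSO, 29 in all. AMF1β (AMF1 in the sample labels) and AMF4 are derivatives of the ABA receptor agonist AM1 with fluorine added to its methylbenzyl ring, AMF4 with more fluorine atoms than AMF1β. The study's methods call the replicates biological, without saying whether they are separate sprays or pots, and p-values cover only the spread that these libraries show.

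Aquaporins are channel proteins that let water and small neutral solutes cross membranes. Plasma membrane intrinsic proteins (PIPs) sit in the cell membrane, where PIP1 proteins work mostly in tetramers with PIP2 proteins. Tonoplast intrinsic proteins (TIPs) sit mostly in the vacuole membrane, NOD26-like proteins (NIPs) carry solutes such as boric acid, and small basic proteins (SIPs) sit in the endoplasmic reticulum. In leaves these channels set how easily water leaves the veins, passes through the mesophyll and reaches guard cells, and ABA, the hormone of water shortage, is known to act on them both through transcript levels and through phosphorylation of the proteins.

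Differences are given as the mean log2(FPKM + 1) of a compound's libraries minus that of DMSO at the same time, from a single limma model of all 29 libraries. A gene was called where its p, adjusted over all 18521 genes by the Benjamini-Hochberg method, was under 0.05 and its change was over 2-fold. Adding 1 understates the changes of genes with low FPKM.

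Among the libraries, AMF4 6 h replicate 1 stood apart with 21835 genes at 1 FPKM or more, against 16265 to 16872 in the other 28. The DMSO 6 h libraries also differed among themselves: transcripts of LHY, a clock gene that peaks at dawn, were at 0.433 to 0.983 FPKM in the 9 compound libraries of that time, against 27.9 and 10.6 FPKM in DMSO 6 h replicates 1 and 2 and 0.436 FPKM in replicate 3. In the leaf marker list, RBCS1A was at 5542 to 28257 FPKM. Of the root markers EXPA7 was at 0 in all 29 libraries, and PYK10, COBL9 and RHD6 did not pass 2.35 FPKM. The ABA response was visible in all 3 ABA-induced markers at 6 h (RD29B, RAB18 and HAI1): RD29B had 61.5, 35.2 and 72.8 FPKM with ABA, 9.17, 15.0 and 6.79 with AMF1β and 36.2, 21.8 and 10.8 with AMF4, against 0.728, 0.581 and 1.83 with DMSO.

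PIP2B (PIP2;2, AT2G37170) and RD28 (PIP2;3, AT2G37180, named RD28 for its responsiveness to desiccation) need a word on what the reads can tell apart. In the RefSeq annotation of the TAIR10.1 assembly they lie on chromosome 2, at 15613368 to 15615022 on the minus strand and at 15617635 to 15619155 on the plus strand, 2612 bases apart. Their coding sequences are both 858 bases long and are identical at 813 of them, 94.8%. Of the 809 windows of 50 bases in the coding sequence of each, 254 (31.4%) occur unchanged in the other, so reads from these windows could be counted for either gene. The stretch of 60 coding bases with the most differences, 10, runs from base 415 to base 474 of both, and is shown with the differing bases in capitals.
PIP2B: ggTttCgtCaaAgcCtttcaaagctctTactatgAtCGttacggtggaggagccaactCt
RD28: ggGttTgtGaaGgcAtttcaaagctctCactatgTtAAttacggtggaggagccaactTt
No other member that passed the filter shares a window of 50 coding bases with a member of the family. NIP4;1 and NLM5, both listed at 0 FPKM in all 29 libraries, share 29 of their 803 windows (3.61%).

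Promoters of all 35 members were searched for short letters known from ABA and drought responses. Shown are the 250 bases before the annotated gene start of the tonoplast gene GAMMA-TIP1 (TIP1;1) (chr2:15445044-15445293, plus strand), of RD28 (chr2:15617385-15617634, plus strand) and of DELTA-TIP1 (TIP2;1) (chr3:5505110-5505359, plus strand), read 5′ to 3′ from TAIR10.1. GAMMA-TIP1 is shown as a called member with matches, RD28 for its large differences and DELTA-TIP1 for its change with time. Capitals mark matches to the ABA-responsive element core (ACGTG) or the dehydration-responsive element core (CCGAC) on either strand.
GAMMA-TIP1: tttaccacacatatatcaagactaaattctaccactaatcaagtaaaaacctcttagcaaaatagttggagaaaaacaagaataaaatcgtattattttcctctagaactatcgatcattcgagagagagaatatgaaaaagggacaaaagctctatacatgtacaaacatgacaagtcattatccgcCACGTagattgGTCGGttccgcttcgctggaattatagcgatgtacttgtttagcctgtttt
RD28: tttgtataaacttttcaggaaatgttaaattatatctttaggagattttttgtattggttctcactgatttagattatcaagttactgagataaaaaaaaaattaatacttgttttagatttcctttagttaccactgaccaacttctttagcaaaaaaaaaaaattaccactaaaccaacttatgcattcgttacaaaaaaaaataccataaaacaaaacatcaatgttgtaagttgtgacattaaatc
DELTA-TIP1: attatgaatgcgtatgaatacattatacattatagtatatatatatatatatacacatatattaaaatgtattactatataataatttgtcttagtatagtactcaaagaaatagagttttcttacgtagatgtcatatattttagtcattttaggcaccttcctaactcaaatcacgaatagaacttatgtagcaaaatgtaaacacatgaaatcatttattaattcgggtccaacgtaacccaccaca
In the GAMMA-TIP1 sequence an ACGTG match, read on the other strand, starts 62 bases before the gene start, and a CCGAC match, also on the other strand, starts 51 bases before it. The RD28 and DELTA-TIP1 windows hold no match to either. Over the family, ACGTG was found in 4 of 35 windows (11.4%, GAMMA-TIP1, ALPHA-TIP, TIP5;1 and SIP1A), against 22.9% of all 27443 windows of this length before protein-coding genes. CCGAC was found in 4 of 35 (11.4%, PIP1C (PIP1;3), PIP2D, GAMMA-TIP1 and GAMMA-TIP2 (TIP1;2)), against 12% of all windows. The evening element AAAATATCT, a clock motif, was found in 0 of 35 windows, against 2.36% of all. The motifs do not overlap each other in the GAMMA-TIP1 window.

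In leaves the family made up 0.294% to 0.951% of a library's summed FPKM. FPKM is per transcript length, so levels can be compared between genes. The 5 members with the highest mean over the 29 libraries were PIP2A (PIP2;1), PIP1B (PIP1;2), GAMMA-TIP2, DELTA-TIP2 (TIP2;2) and PIP1A (PIP1;1), which in sum held 57.3% to 72.4% of the family's FPKM. PIP2A (AT3G53420), a water channel that the ABA-activated kinase OST1 phosphorylates, averaged 1242 FPKM and ranged from 342 to 2135. PIP1B (AT2G45960), a channel for water and CO2, averaged 846 FPKM (201 to 1653), and GAMMA-TIP2 (AT3G26520) averaged 781 FPKM (421 to 1558). DELTA-TIP2 (AT4G17340) averaged 427 FPKM (138 to 866) and PIP1A (AT3G61430) 418 FPKM (129 to 863). The ranges of these 5 overlap, and so does that of PIP2E (AT2G39010), which averaged 363 FPKM and had one of the narrower ranges, 192 to 497.

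A middle tier comprised GAMMA-TIP1 (AT2G36830, mean 354 FPKM), DELTA-TIP1 (AT3G16240, 182 FPKM), PIP1E (AT4G00430, 171 FPKM), PIP1;5 (AT4G23400, 168 FPKM), PIP2B (151 FPKM), PIP3A (PIP2;7, AT4G35100, 119 FPKM), PIP1C (AT1G01620, 93.9 FPKM), the endoplasmic reticulum protein SIP1A (AT3G04090, 77.4 FPKM) and RD28 (51.2 FPKM). Below them came SIP2 (AT3G56950, 28.2 FPKM), NIP6 (NIP6;1, AT1G80760, a boric acid channel of shoots, 23.9 FPKM), NLM2 (AT4G18910, 14.8 FPKM) and PIP2D (AT3G54820, 7.20 FPKM). SIP1B (AT5G18290, 2.23 FPKM), PIP3B (AT2G16850, 1.52 FPKM), NIP5;1 (AT4G10380, the boric acid channel of roots, 1.25 FPKM) and PIP2;4 (AT5G60660, 0.713 FPKM) were near the filter. Of the members that passed, DELTA-TIP1 had the largest ratio of highest to lowest value, from 14.5 FPKM in an AMF4 6 h library to 1493 FPKM in an AMF4 72 h library.

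The 12 members below the filter are mostly known from seeds, pollen, anthers and roots. NIP4;1 (AT5G37810) and NLM5 (AT5G37820), pollen channels, were listed at 0 throughout. The seed members ALPHA-TIP (AT1G73190) and BETA-TIP (AT1G17810) reached at most 0.671 and 0.327 FPKM, and the root members DELTA-TIP3 (AT5G47450), TIP4;1 (AT2G25810), NLM1 (AT4G19030) and NIP2;1 (AT2G34390) at most 0.818, 0.981, 0.296 and 0.472 FPKM. NIP3;1 (AT1G31885) reached at most 0.354 FPKM. The pollen members GAMMA-TIP3 (AT4G01470) and TIP5;1 (AT3G47440) and the anther member NIP7;1 (AT3G06100) passed 1 FPKM in 1 library only, AMF4 6 h replicate 1, with 5.47, 2.08 and 1.48 FPKM. In the other 28 libraries they did not pass 0.153, 0.199 and 0.692 FPKM. That library is the one with the most genes above 1 FPKM, and its part in these values was not tested.

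At 6 h, AMF4 leaves had lower transcript levels than DMSO leaves of 7 aquaporins, 4 of them PIPs (PIP1B, PIP1C, PIP2B and RD28) and 3 of them TIPs (GAMMA-TIP1, DELTA-TIP1 and DELTA-TIP2). Past the threshold PIP1B alone was lower with ABA and RD28 alone with AMF1β. No aquaporin was called higher with any compound at 6 h. The counts are 7 of 23 called lower with AMF4 and 0 higher, beside 4.35% and 4.21% of all genes tested. With ABA they are 1 lower and 0 higher, beside 3.24% and 3.71%, and with AMF1β 1 lower and 0 higher, beside 3.28% and 2.69%. The median difference of the 23 members was -0.31 with AMF4, -0.04 with ABA and -0.19 with AMF1β, beside 0.09, 0.01 and 0.05 over all genes. The 3 comparisons share their DMSO libraries.

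**Figure D1:**
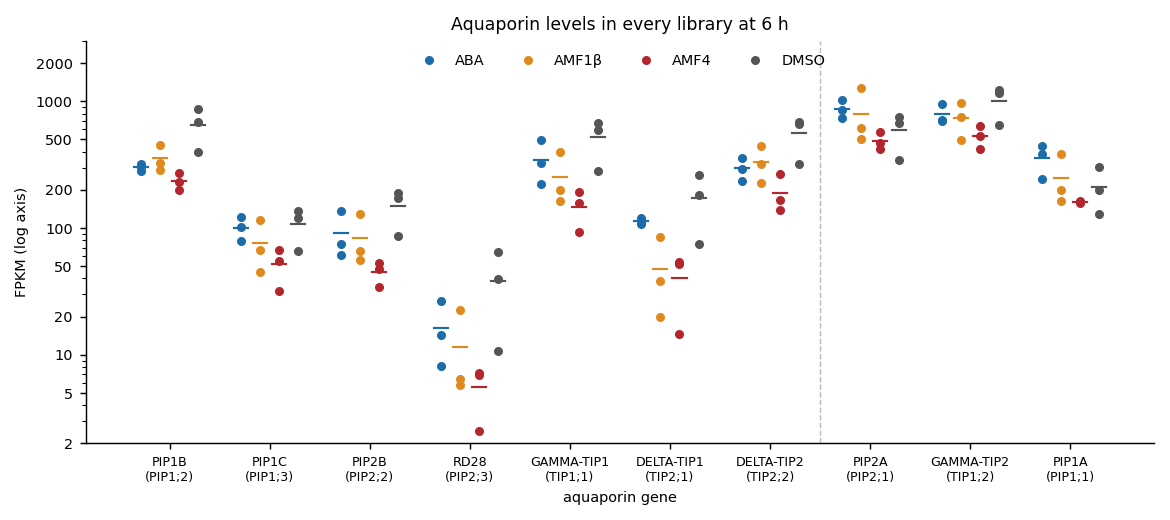
FPKM at 6 h of the 7 aquaporins called with AMF4 (left of the dashed line) and of the 3 others among the 5 most abundant members (right of it), on a log axis. Each point is a library, from left to right ABA, AMF1β, AMF4 and DMSO (3 each), and short lines are means, and for RD28 the AMF4 points lie at 2.5 to 7.20 FPKM and the DMSO points at 10.8 to 64.3 FPKM.

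RD28 had 7.20, 7 and 2.5 FPKM in AMF4 leaves, 26.4, 8.22 and 14.2 in ABA leaves and 6.39, 22.5 and 5.78 in AMF1β leaves, against 64.3, 40.0 and 10.8 in DMSO leaves. Every AMF4 library was below every DMSO library, whereas the ABA and AMF1β libraries overlapped DMSO replicate 3. The difference was -2.37 with AMF4 (SE 0.53, adjusted p = 0.00257) and -1.58 with AMF1β (SE 0.53, adjusted p = 0.0409). Against DMSO replicate 3 alone it was not called with either mimic. The AMF4 difference was then -0.95 (adjusted p = 0.333), and for AMF1β it was -0.16 (adjusted p = 0.914). Its neighbour PIP2B had 53.2, 47.1 and 34.5 FPKM with AMF4, 137, 61.4 and 75.1 with ABA and 65.4, 129 and 56.0 with AMF1β, against 172, 188 and 86.4 with DMSO. All AMF4 libraries lay below all DMSO libraries (-1.65, SE 0.32, adjusted p = 0.000841). Counted as 1 feature, to allow for shared reads, PIP2B and RD28 fell by 1.79 with AMF4 (SE 0.35, adjusted p = 0.000855). The sum did not pass the threshold with AMF1β (-0.98, adjusted p = 0.0549), so the AMF1β call of RD28 does not extend to the sum of both genes.

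PIP1B, the most abundant PIP1, had 232, 273 and 201 FPKM with AMF4, 320, 284 and 300 with ABA and 287, 451 and 325 with AMF1β, against 867, 689 and 400 with DMSO. All AMF4 and ABA libraries were below all DMSO libraries, and AMF1β replicate 2 was above DMSO replicate 3. It fell by 1.41 with AMF4 (SE 0.24, adjusted p = 0.000216) and by 1.04 with ABA (SE 0.24, adjusted p = 0.00357). With AMF1β the difference was -0.83 (adjusted p = 0.0171), under the 2-fold limit. PIP1C had 67.2, 55.4 and 32.1 FPKM with AMF4, 78.9, 102 and 122 with ABA and 44.8, 116 and 66.6 with AMF1β, against 136, 120 and 65.8 with DMSO. Its AMF4 and DMSO libraries overlapped slightly, and its difference of -1.04 (SE 0.37, adjusted p = 0.0393) was near both limits.

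Among the tonoplast members, GAMMA-TIP1, a water and hydrogen peroxide channel, had 191, 157 and 93.8 FPKM with AMF4, 491, 221 and 327 with ABA and 199, 401 and 163 with AMF1β, against 596, 676 and 284 with DMSO. It fell by 1.77 with AMF4 (SE 0.38, adjusted p = 0.00196), and the AMF4 libraries lay below every DMSO library. DELTA-TIP2 had 266, 166 and 138 FPKM with AMF4, 359, 233 and 293 with ABA and 322, 443 and 225 with AMF1β, against 665, 691 and 323 with DMSO (-1.53 with AMF4, SE 0.32, adjusted p = 0.00133). DELTA-TIP1, a channel for water and ammonia, had 52.5, 53.5 and 14.5 FPKM with AMF4, 121, 114 and 109 with ABA and 20.0, 85.5 and 38.2 with AMF1β, against 262, 183 and 74.9 with DMSO. For both TIP2 genes the AMF4 libraries did not overlap the DMSO libraries. DELTA-TIP1 fell by 2.11 with AMF4 (SE 0.72, adjusted p = 0.033), and its AMF1β difference of -1.90 had an adjusted p of 0.0694. GAMMA-TIP2, the most abundant TIP, had 643, 532 and 421 FPKM with AMF4, 692, 708 and 959 with ABA and 497, 976 and 757 with AMF1β, against 1226, 1168 and 645 with DMSO, and was not called (-0.89 with AMF4, SE 0.33). Its highest AMF4 library lay just below its lowest DMSO library.

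Not all abundant members were low. PIP2A had 465, 571 and 421 FPKM with AMF4, 857, 737 and 1017 with ABA and 612, 1278 and 501 with AMF1β, against 750, 675 and 342 with DMSO. The range of each compound overlapped that of DMSO, with ABA by a single library. PIP1A had 160, 162 and 157 FPKM with AMF4, 441, 242 and 385 with ABA and 201, 382 and 162 with AMF1β, against 302, 201 and 129 with DMSO. A few members were higher with an adjusted p under 0.05 but under the 2-fold limit. With ABA these were PIP1E, a channel known for CO2 and hydrogen peroxide (208, 130 and 208 FPKM, against 124, 95.9 and 73.9 with DMSO, a difference of 0.89 and adjusted p = 0.00955), PIP1;5 (0.83, adjusted p = 0.0229) and SIP1A (0.60, adjusted p = 0.0131). With AMF1β SIP1A alone was in this class (0.54, adjusted p = 0.0252). PIP1;5 lay at 122 to 150 FPKM in AMF4 libraries and at 144 to 209 in ABA libraries, against 70.0 to 124 in DMSO libraries.

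These results at 6 h depend on which DMSO libraries they are set against. Of 6 clock genes followed, LHY alone was called with each compound, and it was lower (-2.15 with AMF4, -2.32 with ABA and -2.25 with AMF1β). CCA1 had 25.2, 9.32 and 2.24 FPKM in DMSO replicates 1 to 3, against 3.93 to 7.23 FPKM with the compounds. In CCA1, DMSO replicate 3 was thus below every compound library. TOC1 and GI overlapped between DMSO and every compound. DMSO replicates 1 and 2, with the high LHY values, also had more aquaporin RNA than replicate 3, 5924 and 5284 FPKM summed over the family, beside 2842. Without replicates 1 and 2, replicate 3 is the only control and its spread is assumed to be that of the other groups. Of 23 members 0 were then called lower with AMF4, beside 2.99% of all genes, and 1, PIP2E, was higher, beside 4.26%. With ABA 0 were called lower, beside 2.11%, and 5 higher (PIP1A, PIP1E, PIP1;5, PIP2A and PIP2E), beside 4.16%, and with AMF1β 0 lower, beside 2.51%, and 1 higher (PIP2E), beside 3.58%. The 7 AMF4 differences kept their sign, at -0.41 to -1.09. Without replicate 3, 4 were called lower with ABA (PIP1B, PIP2B, RD28 and DELTA-TIP2) and 6 with AMF1β (these 4, GAMMA-TIP1 and DELTA-TIP1). The share of all genes called without replicate 3 was not computed, so these 2 counts show only how the calls depend on the controls.

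Some of the calls at 6 h also hang on single libraries. The PIP1B call with ABA was lost without ABA replicate 2 (-0.999) or DMSO replicate 1 (-0.80) or 2 (-0.97). The RD28 call with AMF1β was lost without AMF1β replicate 1 (-1.32) or 3 (-1.26) or DMSO replicate 1 (-1.06) or 2 (-1.39). With AMF4, the PIP1C call was lost without AMF4 replicate 2 (-1.12) or 3 (-0.74) or DMSO replicate 1 (-0.84) or 2 (-0.93), and the DELTA-TIP1 call without AMF4 replicate 3 (-1.51) or DMSO replicate 1 (-1.73) or 2 (-1.99). The calls of PIP1B, PIP2B, RD28, GAMMA-TIP1 and DELTA-TIP2 with AMF4 held without any single library.

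In AMF4 leaves 3 of 4 leaf markers (RBCS1A, CAB2 and CAB3) were also called lower at 6 h. Their list summed to 10579 to 25178 FPKM with AMF4, 21662 to 32432 with ABA and 21647 to 32279 with AMF1β, against 30927 to 44937 with DMSO. Of 5 guard cell markers 1 was called lower with AMF4, 2 with ABA and 2 with AMF1β, and the list summed to 30.1 to 49.0 FPKM with AMF4, 41.3 to 51.1 with ABA and 41.1 to 54.3 with AMF1β, against 127 to 152 with DMSO. Most of the DMSO sum was GC1 alone, at 107, 92.8 and 120 FPKM, against 6.14 to 23.4 in compound libraries. The other guard cell markers did not move together. KAT1 had 28.9, 13.8 and 20.0 FPKM with ABA, against 11.1, 9.94 and 8.96 with DMSO, and overlapped DMSO with both mimics. MYB60 had 3.03, 5.48 and 3.47 FPKM with ABA, against 8.02, 8.72 and 10.4 with DMSO. With AMF1β MYB60 had 3.06, 1.29 and 4.86 FPKM and with AMF4 4.99, 4.67 and 3.02. As for GC1, every compound library was below every DMSO library. FAMA and SLAC1 overlapped DMSO with every compound. The part of these clock, leaf and guard cell values in the aquaporin differences was not tested. For any 1 gene in whole leaf RNA, fewer cells of a type and less RNA of that gene per cell cannot be told apart.

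**Figure D2:**
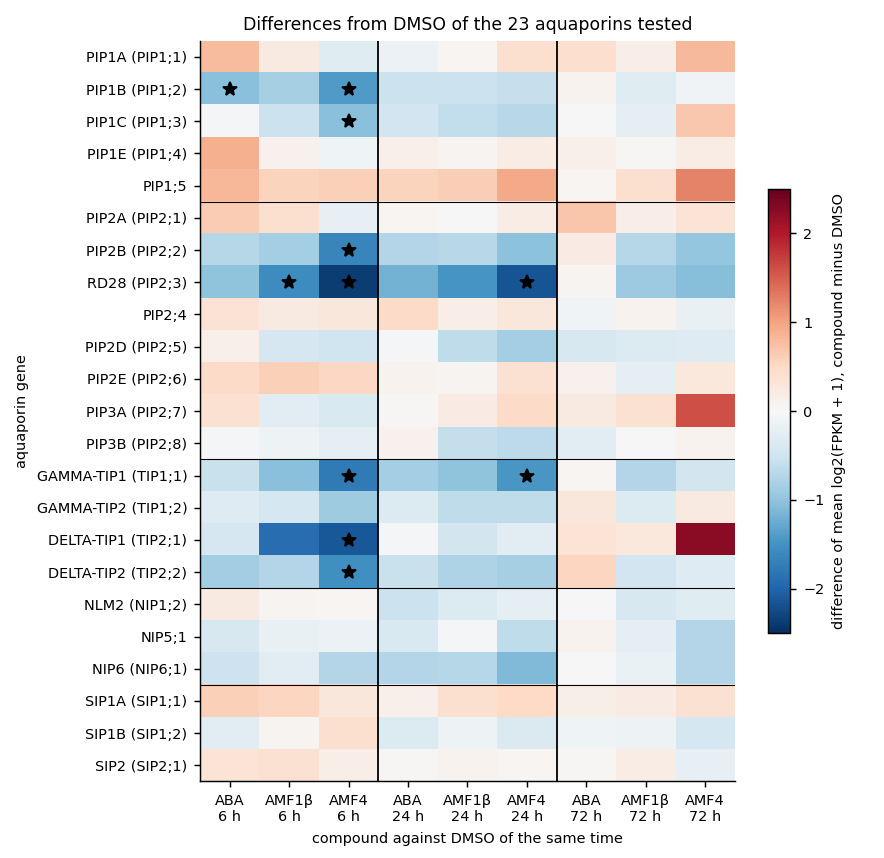
Difference in mean log2(FPKM + 1) between each compound and DMSO of the same time for the 23 aquaporins tested, in rows by subfamily (PIP1, PIP2, TIP, NIP, SIP). Red is higher and blue lower with the compound, the scale ends at 2.5 on either side, and stars mark genes called, and 7 of the 11 stars stand in the AMF4 6 h column.

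The balance between subfamilies also differed at 6 h, and here DMSO replicate 3 stood with the other DMSO libraries. At that time TIP transcripts made up 29.2% to 37.7% of the family's FPKM with AMF4, 35.6% to 37.1% with ABA and 33.3% to 38.5% with AMF1β, against 46.4% to 51.4% with DMSO. PIP2 transcripts made up 35.4% to 38.4% with AMF4, 32.5% to 35.7% with ABA and 32.5% to 38.0% with AMF1β, against 23.9% to 25.2% with DMSO. In neither subfamily did the family share of any compound library reach the DMSO range, DMSO replicate 3 included. PIP1 shares overlapped, at 22.9% to 26.3% with AMF4, 25.3% to 26.6% with ABA and 23.5% to 24.7% with AMF1β, against 22.6% to 26.2% with DMSO. At 24 h the TIP share was 21.0% to 22.0% with AMF4, 26.6% to 29% with ABA and 22.4% to 26.8% with AMF1β, against 28.8% to 37.5% with DMSO, and the ABA range met the DMSO range. At 72 h it was 26.4% and 35.9% with AMF4, 29.7% with ABA and 24.7% and 25.8% with AMF1β, against 29.7% with DMSO. NIP and SIP transcripts held no more than 1.29% and 5.62% of the family in any library. Shares of a whole move against each other, so these are given as a description.

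**Figure D3:**
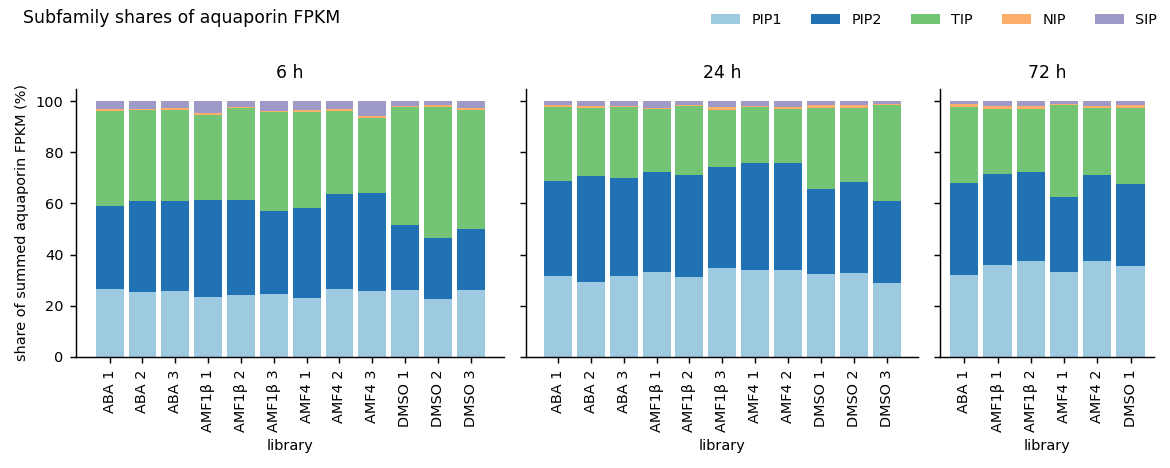
Share of the summed aquaporin FPKM held by each subfamily in each of the 29 libraries, in stacked bars, with compound libraries left of DMSO at each time. At 6 h the TIP segment takes 29.2% to 38.5% of the bar in the 9 compound libraries and 46.4% to 51.4% in the 3 DMSO libraries.

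At 24 h, RD28 and GAMMA-TIP1 were called lower with AMF4, and no aquaporin was called with ABA or AMF1β. The counts are 2 of 23 lower and 0 higher with AMF4, beside 2.36% and 2.12% of all genes. With ABA 0 of 23 were called, beside 0.724% of all genes in either direction, and 7 had an unadjusted p under 0.05, beside 13.9% of all genes. With AMF1β 0 were called, beside 1.84%, and 10 had an unadjusted p under 0.05, beside 22.1%. RD28 had 37.9 and 22.5 FPKM with AMF4, 59.5, 63.0 and 52.4 with ABA and 36.9, 66.4 and 42.1 with AMF1β, against 134, 98.6 and 178 with DMSO. All 8 compound libraries were below all 3 DMSO libraries, and the differences were -2.15 with AMF4 (SE 0.59, adjusted p = 0.0263), -1.18 with ABA (adjusted p = 0.321) and -1.48 with AMF1β (adjusted p = 0.107). GAMMA-TIP1 had 250 and 183 FPKM with AMF4, 336, 381 and 276 with ABA and 236, 415 and 261 with AMF1β, against 493, 473 and 886 with DMSO, again with no overlap. It fell by 1.46 with AMF4 (SE 0.43, adjusted p = 0.0357). PIP2B had 135 and 128 FPKM with AMF4, 188, 187 and 118 with ABA and 127, 189 and 186 with AMF1β, against 258, 254 and 297 with DMSO (-1.03 with AMF4, adjusted p = 0.0824). As 1 feature PIP2B and RD28 fell by 1.32 with AMF4 (adjusted p = 0.0385). Both calls were lost without AMF4 replicate 1 (RD28 -2.51, GAMMA-TIP1 -1.69) or 2 (-1.79, -1.24) or DMSO replicate 3 (-1.94, -1.17), and RD28 also without DMSO replicate 1 (-2.15, adjusted p = 0.0553). Of the guard cell markers 2 of 5 were lower with AMF4 at this time, with a summed 22.3 FPKM, against 71.1 to 96.5 FPKM with DMSO. GC1 made up much of the DMSO sum, at 44.2, 28.9 and 66.1 FPKM, against 1.98 and 2.37 with AMF4. MYB60 had 1.58 and 1.92 FPKM with AMF4, against 7.94, 21.8 and 10.2 with DMSO. KAT1 lay slightly below its DMSO range, and FAMA and SLAC1 overlapped theirs.

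For the other members at 24 h, PIP1B had 981 and 791 FPKM with AMF4, 1021, 922 and 796 with ABA and 723, 1044 and 983 with AMF1β, against 1251, 1104 and 1641 with DMSO. Each compound library was below each DMSO library and the differences were -0.53 to -0.58, none called. PIP2A had 2010 and 1589 FPKM with AMF4, 1592, 1872 and 1405 with ABA and 1195, 1979 and 1569 with AMF1β, against 1410, 1289 and 2104 with DMSO, in overlapping ranges. PIP1A had 749 and 578 FPKM with AMF4, 481, 435 and 438 with ABA and 387, 653 and 540 with AMF1β, against 525, 367 and 650 with DMSO. GAMMA-TIP2 (484 to 688 FPKM with AMF4, 617 to 831 with ABA and 479 to 791 with AMF1β, against 627 to 1558 with DMSO) and DELTA-TIP2 (361 to 369, 384 to 493 and 282 to 451 FPKM in that order, against 419 to 866) were not called either. DELTA-TIP1 varied widely within groups, with 171 and 69.7 FPKM with AMF4, 134, 119 and 129 with ABA and 99.6, 227 and 38.6 with AMF1β, against 105, 57.7 and 370 with DMSO. PIP1C had 84.3 and 55.4 FPKM with AMF4, against 103, 72.6 and 181 with DMSO. With an adjusted p under 0.05 but under 2-fold, PIP1;5 was higher with AMF4 (248 and 184 FPKM, against 98.7, 89.5 and 154 with DMSO, 0.94, adjusted p = 0.0394) and PIP2D lower (4.22 and 3.88 FPKM, against 9.41, 7.40 and 7.46 with DMSO, -0.84, adjusted p = 0.0378). NIP6 had 18.7 and 18.8 FPKM with AMF4, against 50.5, 41.3 and 33.5 with DMSO (-1.10, adjusted p = 0.0592).

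At 72 h no aquaporin was called, in comparisons that have 1 DMSO and 1 ABA library and take their spread from the other groups. Of the 23, 0 were called with AMF4, beside 1.55% of all genes, 0 with ABA, beside 0% of all genes, and 0 with AMF1β, beside 0.0108%. At an unadjusted p under 0.05 there were 3 with AMF4, beside 14.0% of all genes, 0 with ABA, beside 1.82%, and 0 with AMF1β, beside 4.13%, in each case no larger a share than over all genes. The 3 with AMF4 all had positive differences. DELTA-TIP1 had 1493 and 382 FPKM with AMF4, 202 with ABA and 256 and 142 with AMF1β, against 158 with DMSO (2.25, SE 1.08, adjusted p = 0.357). PIP3A, a PIP2 that the ABA-induced protein TSPO is known to carry to degradation, had 528 and 220 FPKM with AMF4, 129 with ABA and 156 and 133 with AMF1β, against 110 with DMSO (1.62, SE 0.58, adjusted p = 0.179). PIP1;5 had 491 and 273 FPKM with AMF4, 160 with ABA and 220 and 186 with AMF1β, against 154 with DMSO (1.24, SE 0.38, adjusted p = 0.1). In these 3 genes both AMF4 libraries were above every other library of that time, and AMF4 replicate 1 was the higher. The share of all genes with such an order was not computed. Set against the DMSO libraries of 24 and 72 h pooled, these 3 were called higher. The share of all genes called against this pool was not computed, so the 3 calls are not read as a result about the family.

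RD28 had 47.4 and 65.0 FPKM with AMF4, 123 with ABA and 66.9 and 57.5 with AMF1β, against 118 with DMSO at 72 h. The ABA library was at the DMSO level and the 4 AMF libraries were below it, with differences of -1.07 with AMF4 (95% interval -2.73 to 0.59) and -0.92 with AMF1β (-2.57 to 0.74). PIP2B had 125 and 156 FPKM with AMF4, 316 with ABA and 174 and 161 with AMF1β, against 273 with DMSO. GAMMA-TIP1 had 429 and 284 FPKM with AMF4, 499 with ABA and 322 and 257 with AMF1β, against 482 with DMSO, and DELTA-TIP2 had 438 and 437, 799, and 410 and 374 FPKM in that order, against 549. PIP1B had 1533 and 1376 FPKM with AMF4, 1653 with ABA and 1285 and 1239 with AMF1β, against 1550 with DMSO. PIP2A had 1847 and 1504 FPKM with AMF4, 2135 with ABA and 1603 and 1362 with AMF1β, against 1324 with DMSO. GAMMA-TIP2 had 1336 and 765 FPKM with AMF4, 1052 with ABA and 716 and 657 with AMF1β, against 864 with DMSO, PIP1A had 863 and 615, 559, and 511 and 424 FPKM in that order, against 417, and PIP1C had 226 and 133, 109, and 92.2 and 90.6 FPKM, against 108.

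**Figure D4:**
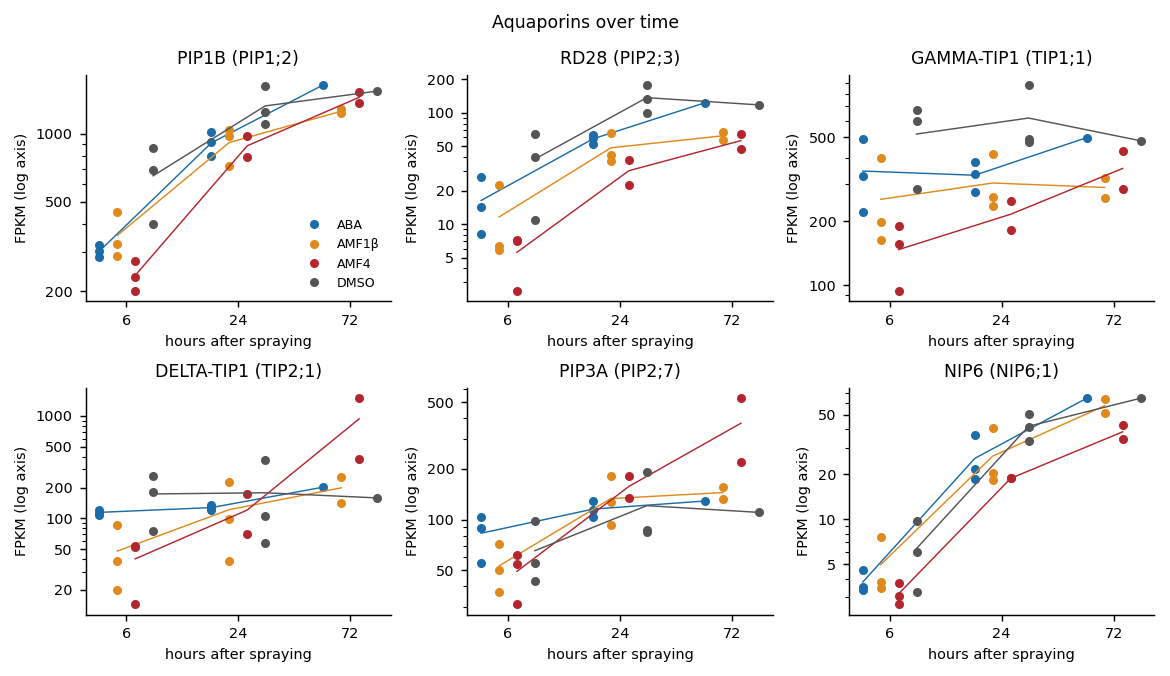
FPKM of 6 aquaporins in each library at 6, 24 and 72 h, on log axes with a scale of its own in each panel. Points are libraries in the order ABA, AMF1β, AMF4 and DMSO at each time, and lines join group means, and RD28 with AMF4 lies below DMSO at all 3 times, and DELTA-TIP1 with AMF4 lies at 14.5 to 53.5 FPKM at 6 h and at 382 and 1493 FPKM at 72 h.

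Whether a difference from DMSO changed with time was tested directly, as the difference at 24 or 72 h minus that at 6 h. DELTA-TIP1 alone passed, with AMF4 at 72 h against 6 h, a change of 4.36 (SE 1.30, adjusted p = 0.0356), with values below DMSO at 6 h and above it at 72 h. In that test 1 of 23 members was called in the positive direction, beside 5.08% of all genes, and 0 in the negative, beside 3.73%. With AMF4 at 24 h 0 were called, beside 5.97% of all genes in either direction. With ABA 0 were called at 24 h and 0 at 72 h, beside 5.25% and 0.113%. With AMF1β 0 were called at 24 h and 0 at 72 h, beside 1.24% and 0.923%. At an unadjusted p under 0.05 there were 1 and 5 members with AMF4 at 24 and 72 h, beside 25.9% and 28.9% of all genes, 3 and 2 with ABA, beside 22.9% and 8.6%, and 0 and 0 with AMF1β, beside 14.5% and 14.4%. These shares of members are near or below those of all genes. The DELTA-TIP1 call was lost without AMF4 6 h replicate 3 (3.76), DMSO 6 h replicate 1 (3.98) or 2 (4.24) or AMF4 72 h replicate 1 (3.38), and without DMSO 6 h replicates 1 and 2 together (3.34, adjusted p = 0.178, chosen after seeing the data). In the same test 1 of 4 leaf markers (CAB3, 2.19, adjusted p = 0.0323, with a list median of 1.24) and 1 of 5 guard cell markers (GC1, 1.97, adjusted p = 0.0302, with a list median of -0.31) were called in the positive direction, and their part in the DELTA-TIP1 change was not tested.

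The compounds were also set against each other at the same dose and time, in 9 comparisons, and no aquaporin was called in any of them. AMF4 and ABA at 6 h stood farthest apart: 0 of 23 were called, beside 0.508% of all genes, but 11 had an unadjusted p under 0.05, beside 20.4% of all genes, and the median difference was -0.57, beside 0.04 over all genes. PIP1E had 95, 96.3 and 77.6 FPKM with AMF4 and 208, 130 and 208 with ABA, a difference of -0.99 (95% interval -1.47 to -0.51, adjusted p = 0.0407) that missed the 2-fold limit narrowly. GAMMA-TIP1 differed by -1.21 (-2.01 to -0.41, adjusted p = 0.0896), RD28 by -1.36 (-2.46 to -0.25, adjusted p = 0.156) and PIP1A by -1.10 (-1.76 to -0.45, adjusted p = 0.0648). For these 4 genes all AMF4 libraries were below all ABA libraries, for RD28 by a small margin (7.20 against 8.22 FPKM). The share of all genes separated in this way was not computed, so this describes these genes only. Without ABA replicate 2, 1 aquaporin, PIP1E, was called lower, and the share of all genes called then was not computed.

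AMF4 and AMF1β, which differ in the number of fluorine atoms, were also compared at 6 h: 0 of 23 were called, beside 0% of all genes, and 3 (PIP1B, PIP2B and DELTA-TIP2) had an unadjusted p under 0.05, beside 7.33%. The intervals leave room for sizeable differences, -0.80 for PIP2B (-1.48 to -0.13) and -0.79 for RD28 (-1.89 to 0.32), so that these data do not show the mimics to act alike on aquaporins. AMF1β and ABA differed by -0.79 in PIP1E at 6 h (-1.27 to -0.31, adjusted p = 0.138), with 0 of 23 called, beside 0.367%, and 2 at an unadjusted p under 0.05, beside 11.2%. At 24 h 0 were called between AMF4 and ABA, AMF1β and ABA, and AMF4 and AMF1β, beside 2.13%, 1.45% and 0% of all genes, and 2, 2 and 0 members had an unadjusted p under 0.05, beside 15.8%, 19.3% and 6.34%, so fewer in proportion than over all genes. At 72 h 0 were called in the same 3 comparisons, beside 0.626%, 0% and 0.054%, and 3, 1 and 3 had an unadjusted p under 0.05, near the 14.5%, 3.3% and 11.8% of all genes. RD28 at 24 h differed by -0.97 between AMF4 and ABA (-2.21 to 0.26) and by -0.67 between AMF4 and AMF1β (-1.90 to 0.57).

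In DMSO leaves several aquaporins were higher at 24 h than at 6 h. NIP6 had 50.5, 41.3 and 33.5 FPKM at 24 h, against 9.80, 6.04 and 3.28 at 6 h, a difference of 2.62 (SE 0.32, adjusted p = 1.93e-06). RD28 was higher by 2.08 (SE 0.53, adjusted p = 0.00386), PIP2A by 1.49 (SE 0.31, adjusted p = 0.000827), PIP1A by 1.33 (SE 0.31, adjusted p = 0.00222) and PIP1B by 1.08 (SE 0.24, adjusted p = 0.00114). The PIP1B call was lost without DMSO 6 h replicate 3 (0.76) or DMSO 24 h replicate 3 (0.92). In all, 5 of 23 were called higher and 0 lower, beside 7.9% and 6.67% of all genes. At 72 h NIP6 was at 64.4 FPKM with ABA, 51.5 and 63.2 with AMF1β and 34.1 and 42.5 with AMF4, against 64.3 with DMSO. Of the 6 clock genes 3 (LHY, CCA1 and PRR9) were called higher and 2 (TOC1 and GI) lower at 24 h than at 6 h, with LHY at 132, 240 and 139 FPKM, against 27.9, 10.6 and 0.436. Hours since the spray and hour of the day cannot be told apart in this design.

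Aquaporins are also governed by proteins that phosphorylate, ubiquitinate or traffic them, and 12 such genes were followed, all of which passed the filter. TSPO, an ABA-induced protein known to bind PIP3A and take it to the vacuole, had 17.6, 15.4 and 13.9 FPKM at 6 h with AMF4, 25.7, 15.6 and 26.5 with ABA and 9.82, 12.4 and 7.40 with AMF1β, against 0.545, 0.0739 and 1.35 with DMSO. It was called higher with all 3 compounds at 6 h (3.40, 3.87 and 2.76 in that order), with AMF4 and AMF1β at 24 h (3.32 and 1.91) and with AMF4 at 72 h (1.81, adjusted p = 0.04). At 24 h it was also higher with AMF4 than with ABA (43.5 and 31.4 FPKM, against 4.35, 9.83 and 4.09, a difference of 2.51, adjusted p = 0.000262) and higher with AMF1β than with ABA (12.4, 13.1 and 14.4 FPKM, a difference of 1.10, adjusted p = 0.044). PIP3A transcript, by contrast, was not called at 6 h (54.5, 61.5 and 31.3 FPKM with AMF4, against 97.5, 55.4 and 42.9 with DMSO).

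UBC32, a ubiquitin-conjugating enzyme of the endoplasmic reticulum, had 54.2, 40.1 and 72.1 FPKM at 6 h with AMF4 and 66.4, 40.8 and 72.4 with ABA, against 27.5, 25.3 and 24.8 with DMSO, and was called higher with both (1.03 with AMF4). With AMF1β it had 53.4, 51.6 and 44.6 FPKM, also above every DMSO library, and was not called. At 24 h it was called higher with AMF4 than with ABA (100.9 and 95.2 FPKM, against 52.6, 52.8 and 37.9, a difference of 1.04, adjusted p = 0.0135). With TSPO this makes 2 of the 12 in that comparison, beside 2.13% of all genes in either direction. RMA1, a ubiquitin ligase of the family that targets PIP2A, was higher with AMF4 than with ABA at 72 h. It had 4.53 and 3.03 FPKM, against 1.29, a difference of 1.04. This rests on 1 ABA library, which had the lowest RMA1 value of all 29. At 72 h RMA1 was at 2.19 and 3.33 FPKM with AMF1β and at 1.97 with DMSO, so AMF1β overlapped AMF4. Between DMSO at 24 and 6 h RMA1 was lower (2.20, 1.74 and 2.06 FPKM, against 17.3, 13.7 and 14.3, -2.42) and RMA2, UBC32 and TSPO were higher. At 6 h 2 of the 12 were called higher with AMF4, 2 with ABA and 1 with AMF1β, beside 4.21%, 3.71% and 2.69% of all genes. At 24 h 1 was called higher with AMF4, beside 2.12% of all genes. With ABA 0 and with AMF1β 1 were called higher at 24 h, beside 0.724% and 1.84% of all genes in either direction. In each case 0 were lower. At 72 h TSPO alone was called, with AMF4, beside 1.55% of all genes in either direction. With a list of 12 these counts rest on 1 or 2 genes. The kinases OST1, BAK1 and SIRK1, the ubiquitin ligases RMA1, RMA2 and RMA3, the trafficking proteins SYP121 and SYP61, the carbonic anhydrase BCA4 and the transcription factor XND1 were not called against DMSO at any time.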

How the data were processed

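Leaf RNA of 29 libraries was analysed. FPKM values, 1 per gene and library, were deposited by the authors, who used TopHat2 and Cufflinks on TAIR10 (versions: not given in the sources used here). All columns were matched to libraries by title (0 unassigned). FPKM holds no read counts. Low values placed relative depth between 0.459 and 1.9 times the median, and column sums ran from 763464 to 1140081. The lowest depth was that of AMF4 6 h replicate 1, and the next lowest that of DMSO 6 h replicate 1, 0.546.

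log2(FPKM + 1) values were fitted in R 4.3.3 with limma 3.58.1, with 1 mean for each of 12 groups (17 residual and 3.82 prior degrees of freedom), for genes reaching 1 FPKM in 2 libraries or more. Groups at 72 h with 1 library take their spread from the others. Intervals are 95%. Members passing this filter are named with levels, called and most abundant members with all values. Members and lists were chosen with earlier results of these data known. Sequences and loci come from RefSeq TAIR10.1, whose nuclear chromosomes are those of TAIR10. Promoters were located for 35 of 35 members. The script was tested on simulated data. Replicate numbers did not pair libraries. Alternatives covered the pseudocount, filter, scaling, trend, fold limit, samples, controls, replicate block, and each library left out. pRD29a-PYL2 plants were not analysed here.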

Additional observations from a re-analysis of the deposited data

Results flagged for a closer look

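The difference of DELTA-TIP1 between AMF4 and DMSO was called as changed between 6 h and 72 h. It changed by 4.36 on the log2(FPKM + 1) scale (SE 1.30, limma, adjusted p = 0.0356). DELTA-TIP1 was the 1 of 23 members called in the positive direction, beside 5.08% of all genes, so the family did not exceed the share of all genes. DELTA-TIP1 stood at 1493 and 382 FPKM with AMF4 at 72 h, against 158 with DMSO, and at 52.5, 53.5 and 14.5 FPKM with AMF4 at 6 h, against 262, 183 and 74.9 with DMSO. Both AMF4 libraries of 72 h lay above DMSO and all 3 of 6 h lay below it. The 72 h side has 1 DMSO library. Over 35 alternatives the change stayed between 3.34 and 5.34, and the call was lost in 6 of them. Many of the 35 left out a library of a group outside this contrast, which cannot move the difference itself. The call was lost with no filter on low values and without DMSO 6 h replicates 1 and 2 together (3.34). It was also lost on leaving out any 1 of these libraries of the contrast: AMF4 6 h replicate 3, DMSO 6 h replicate 1, DMSO 6 h replicate 2 or AMF4 72 h replicate 1.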

How the results depend on the processing

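Of 286 counts recomputed under the alternatives 236 stayed within 1.5 times the first value and 50 did not. A count of 0 that stayed 0 is among the 236, and most of the comparisons started from 0. The share of all genes was recomputed only for the 6 h comparisons with DMSO without DMSO 6 h replicates 1 and 2. The other counts below therefore show how calls of aquaporins depend on the setting, and not whether they moved with all genes. Of 280 recomputed calls of single members 234 were kept, 46 lost and 0 reversed. The 280 include refits of the DELTA-TIP1 change that left out a library outside its contrast. They also include the adjusted p alone, which cannot lose a call. With no filter on low values 0 aquaporins were called with AMF1β at 6 h, 0 with AMF4 at 24 h and 0 in the change with time. The change with time gave 2 with a filter on the mean, 2 with median-of-ratios scaling and 2 with no trend of the spread. Scaling moved the median of all genes by at most 0.0706 in size and called 1 member lower between AMF4 and ABA at 6 h. With libraries of the same time only, 1 was called with AMF1β at 24 h. On the adjusted p alone the counts were 4 with ABA, 3 with AMF1β and 1 between AMF4 and ABA at 6 h, 4 with AMF4 at 24 h and 8 between DMSO at 24 and 6 h. Against DMSO of 24 and 72 h pooled, 3 were called with AMF4 at 72 h.

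Without DMSO 6 h replicates 1 and 2 the counts were 5 with ABA and 1 with AMF4 at 6 h, 8 between DMSO at 24 and 6 h and 0 in the change with time, the last pair chosen after seeing the data. Without AMF4 6 h replicate 1 and DMSO 6 h replicate 3 they were 4 with ABA and 6 with AMF1β at 6 h. Leaving out single libraries gave 0 to 4 calls with ABA, 0 to 6 with AMF1β and 5 to 9 with AMF4 at 6 h, 0 to 1 between AMF1β and ABA and 0 to 1 between AMF4 and ABA at 6 h, 0 to 2 with AMF4 at 24 h, 0 to 1 between AMF4 and ABA at 24 h, 0 to 1 with AMF4 at 72 h, 4 to 8 between DMSO at 24 and 6 h and 0 to 5 in the change with time. The cause was not tested. The single ABA and DMSO libraries of 72 h could not be left out.

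With the replicate number as a block, 7 were called with AMF4 at 6 h and 3 with AMF4 at 24 h. Over 35 pairs of like-numbered libraries the correlation of deviations ran from -0.253 to 0.243, with 9 over 0.1, and 7 of 27 libraries were closest to one of their own number, so the numbers were not read as pairing.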
